A study of Mus musculus with 12 samples.

Results

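Epidermal growth factor (EGF) receptor signaling was described here through 9 genes of the 32285 in the deposited count files: the receptors Egfr, Erbb2 and Erbb3 and the ligands Areg (amphiregulin), Ereg (epiregulin), Hbegf (heparin-binding EGF-like growth factor), Tgfa (transforming growth factor alpha), Btc (betacellulin) and Epgn (epigen). The genes were taken by symbol, and all 9 were found. The ligands are made as membrane-bound precursors, which proteases of the ADAM family cut to release the soluble factor. Bound ligand makes receptors pair: EGFR binds ligand and signals, ERBB2 has no known ligand and acts as a partner, and ERBB3 binds neuregulins but has a weak kinase and depends on its partner. In the epidermis this pathway is known for keeping basal keratinocytes dividing and for driving repair, and amphiregulin is also known as a product of T cells.

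The hind paw epidermis of 12 wild-type C57BL/6J mice was dissociated and sequenced in 10x Genomics droplets with a 3′ kit, 1 library per mouse. The mice were fed a regular diet (RD, 11% fat) or a high-fat diet (HFD, 42% fat), with which the study models painful diabetic neuropathy, for 10 weeks from 6 to 8 weeks of age, and were 16 to 18 weeks old. Each diet was given to 3 males and 3 females. Each captured transcript bears a unique molecular identifier (UMI), so that 1 UMI stands for 1 molecule, and 134449247 to 194673581 UMIs were counted per mouse.

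After filtering, 62147 male and 64228 female cells were clustered, each sex on its own, with the 9 genes and the other pathway genes left out of the genes used for clustering. Clusters were named from marker genes, and each name means "like" that cell type. For the immune classes the defining markers were where the names place them: Trdc, the constant part of the T cell receptor delta chain, had 2246 CPM (UMIs in 1000000) in male T cell-like cells and 0.0251 in the basal class, and Cd207, the langerin gene of Langerhans cells (LCs), had 2561 CPM in male LC-like cells and 0 in T cell-like cells. In females the same values were 461 and 0.0127 CPM for Trdc, and 3631 and 0 CPM for Cd207. The T cell-like class was small, with 192 male and 286 female cells, 19 to 80 per mouse. The naming rule gave a class named for Krt9, the keratin of volar skin, in males alone, but Krt9 itself was not particular to it, with 340.0 CPM there, 411 CPM in a male cluster led by Lars2, 789.6 CPM in female suprabasal cells and 462 CPM in the female cluster led by Mettl7a1. Krt79, a marker of the migratory class (2067 CPM in males), had 2266 CPM in an unnamed male cluster led by Dynap. The largest clusters without a name were led by Serpinb3a in males (4131 cells) and by Mettl7a1 in females (12949 cells). The female suprabasal class contained a cluster led by Serpinb3a, which in males was outside that class. Libraries shared 12 to 59 cell barcodes per pair, at most 0.583% of the smaller library.

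Levels are given as CPM of a class, the share of a gene among all UMIs that the cells of the class held in a mouse, as mean ± SD over the 6 mice of a sex unless a diet is named. The male counts were made with another version of the counting software than the female counts according to the file headers, so sex and software cannot be told apart and levels were not compared between sexes. Levels were not corrected for gene length and were not compared between genes either. Because cells of 1 mouse are not replicates, diets were compared over mice.

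The 4 genes Epgn, Ereg, Areg and Btc lie side by side on chromosome 5 of GRCm38, between positions 91027464 and 91402994, a span of 376 kb that holds no other protein-coding gene. Epgn (91027464 to 91035215), Ereg (91074622 to 91093646) and Areg (91139599 to 91148432) are on the plus strand and Btc (91357261 to 91402994) is on the minus strand. The RefSeq promoters of 3 of these neighbors are shown because Areg was highest in T cell-like cells and its neighbors Epgn and Btc in other classes. Each runs from 250 bases before the start of transcription to 50 bases after it, 5′ to 3′ on the strand of the gene (GRCm38.p6), at chr5:91027267-91027566 (plus strand) for Epgn, chr5:91139349-91139648 (plus strand) for Areg and chr5:91402945-91403244 (minus strand) for Btc. Capitals mark TATAAA, read on the sense strand, and TGACGTCA, the cAMP response element, which reads the same on both strands.
Epgn: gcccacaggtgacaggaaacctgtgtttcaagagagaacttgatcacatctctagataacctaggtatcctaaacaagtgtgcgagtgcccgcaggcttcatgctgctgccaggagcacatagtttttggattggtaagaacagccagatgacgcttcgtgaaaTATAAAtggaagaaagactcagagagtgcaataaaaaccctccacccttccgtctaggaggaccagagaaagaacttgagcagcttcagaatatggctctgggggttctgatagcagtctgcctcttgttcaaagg
Areg: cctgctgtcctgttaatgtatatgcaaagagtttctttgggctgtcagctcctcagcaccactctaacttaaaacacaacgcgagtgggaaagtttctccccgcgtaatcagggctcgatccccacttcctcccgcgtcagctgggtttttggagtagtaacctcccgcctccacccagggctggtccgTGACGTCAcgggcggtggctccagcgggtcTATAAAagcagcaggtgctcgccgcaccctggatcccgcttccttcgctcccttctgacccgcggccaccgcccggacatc
Btc: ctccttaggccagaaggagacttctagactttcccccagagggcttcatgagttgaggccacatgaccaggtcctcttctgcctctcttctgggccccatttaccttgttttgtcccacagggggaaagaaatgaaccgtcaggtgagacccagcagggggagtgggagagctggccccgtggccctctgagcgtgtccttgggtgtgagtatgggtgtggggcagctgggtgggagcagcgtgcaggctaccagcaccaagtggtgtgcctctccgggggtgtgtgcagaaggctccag
The Areg window held 1 TGACGTCA and 1 TATAAA, the Epgn window 1 TATAAA, and the Btc window neither. Of 32851 RefSeq promoters of the same length, 1.79% held TGACGTCA and 8.32% held TATAAA in this orientation. A match is a description of the letters and not a measured binding site.

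Egfr, the receptor that all 6 ligands bind, lies on chromosome 11 (16752203 to 16918158). Its level went down along the keratinocyte stages, from basal (32.4 ± 1.58 CPM) over proliferating (28.0 ± 0.957 CPM) and suprabasal (20.6 ± 1.30 CPM) to terminally differentiated cells (7.03 ± 1.09 CPM) in males. In females the same stages gave 309 ± 30.7, 247 ± 24.2, 220.2 ± 17.1 and 82.5 ± 9.50 CPM for Egfr, and the range of the proliferating class overlapped those of the basal and of the suprabasal class, whereas the 4 male ranges were separate. The terminally differentiated class was thus lowest among the named keratinocytes in both sexes. Male migratory cells stood above the basal class, at 40.6 ± 3.76 CPM, and female migratory cells below it, at 189 ± 9.50 CPM. The male cluster led by Dynap had 45.4 ± 7.61 CPM of Egfr.

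Erbb2, the partner without a ligand, lies on the same chromosome (98412470 to 98437716) and was highest among the named keratinocytes in the suprabasal class, at 36.8 ± 2.33 CPM in males and 41.9 ± 3.28 CPM in females. Its basal level was 16.2 ± 1.13 CPM in males and 21.6 ± 2.18 CPM in females, and its terminally differentiated level was 7.77 ± 1.93 and 10.4 ± 2.83 CPM. Erbb3, on chromosome 10 (128567523 to 128589652), had 43.6 ± 2.13 CPM in suprabasal and 52.3 ± 5.89 CPM in migratory cells of males and 66.4 ± 11.0 CPM in the cluster led by Dynap, against 30.8 ± 3.82 CPM in basal cells. In females Erbb3 had 79.0 ± 5.39 CPM in suprabasal, 74.5 ± 8.29 CPM in migratory and 45.1 ± 2.95 CPM in basal cells, and the suprabasal and migratory ranges overlapped in both sexes. Unlike Egfr, Erbb2 and Erbb3 were higher in suprabasal than in basal cells in 6 of 6 mice of each sex.

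**Figure D1:**
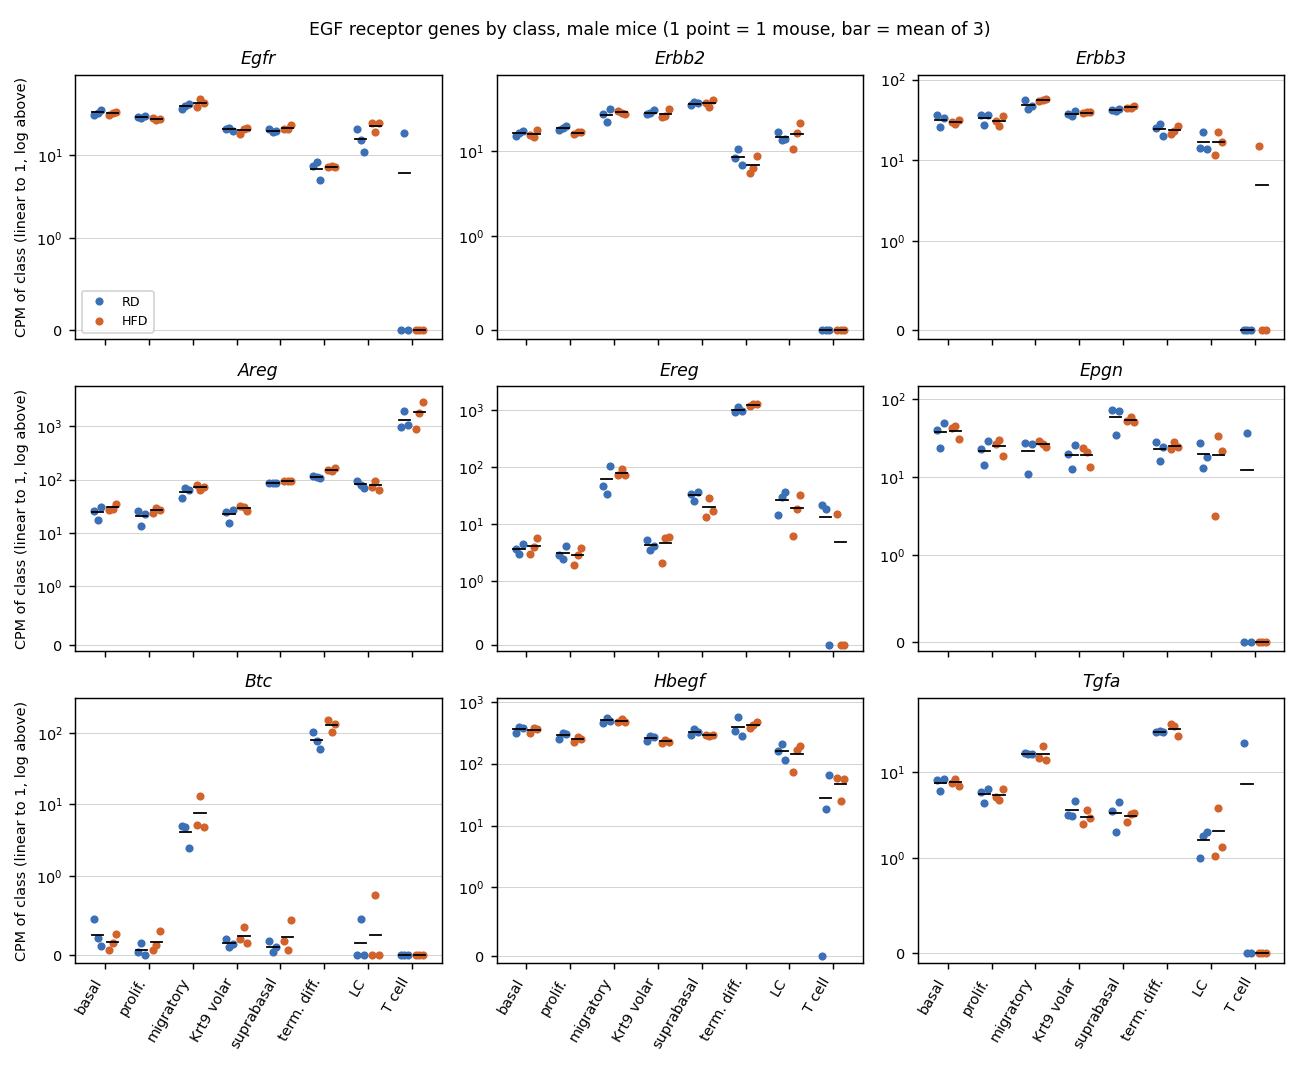
Level of the 9 genes in the cell classes of male mice. Each panel is 1 gene, each point 1 of 6 mice, the bar the mean of 3 mice on 1 diet, and the vertical axis the CPM of the class, linear up to 1 and logarithmic above. Btc stands at 59.6 to 153 CPM in terminally differentiated cells and Areg at 881 to 2803 CPM in T cell-like cells.

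**Figure D2:**
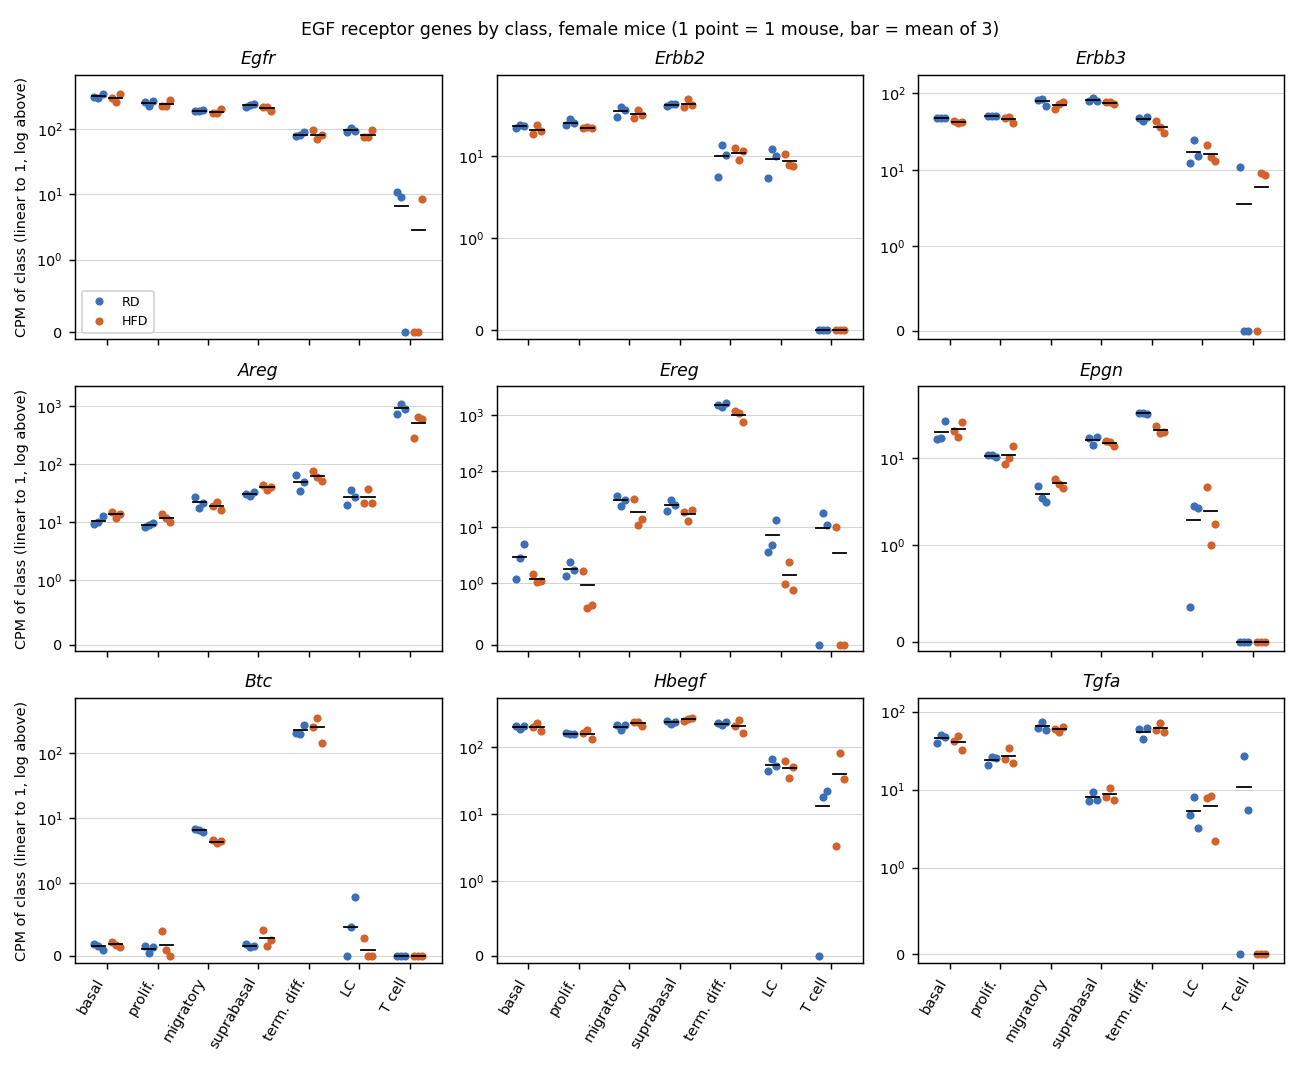
Level of the 9 genes in the cell classes of female mice, with 1 point per mouse, bars for the mean of 3 mice on 1 diet and a vertical axis in CPM of the class, linear up to 1 and logarithmic above. Egfr is at 261 to 343 CPM in basal and 70.0 to 97.3 CPM in terminally differentiated cells, while Btc and Ereg are highest in the latter.

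Ereg and Btc were highest in the terminally differentiated class. Ereg, a ligand of EGFR and ERBB4, had 1138 ± 155 CPM there in males (range 925 to 1314 CPM) and 1278 ± 332 CPM in females (range 745 to 1644 CPM). In basal cells Ereg had 4.01 ± 1.04 CPM in males and 2.06 ± 1.53 CPM in females, and its range in the terminally differentiated class lay above that of every other class in both sexes. This class held 51.6% ± 6.33 of all Ereg UMIs in males and 82.7% ± 6.17 in females, although it held 4.70% and 2.69% of the cells. In males a further 38.3% ± 5.07 of the Ereg UMIs lay in the cluster led by Serpinb3a, which had 486 ± 45.8 CPM.

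Btc, likewise a ligand of EGFR and ERBB4, was narrower still. It had 104 ± 34.5 CPM in male (59.6 to 153 CPM) and 235 ± 70.1 CPM in female (143 to 346 CPM) terminally differentiated cells. The migratory class followed at 5.85 ± 3.63 CPM in males and 5.46 ± 1.22 CPM in females, and Btc in the other named classes was at or below 0.209 CPM in males and 0.242 CPM in females. The terminally differentiated class held 94.9% ± 1.12 of the Btc UMIs in males and 93.5% ± 2.73 in females. Few cells carried them: after each cell was thinned to 1000 UMIs, 6.55% ± 1.66 of male and 13.2% ± 2.29 of female terminally differentiated cells held a Btc UMI (19.3% and 34.2% before thinning), and single cells held up to 114 and 152 Btc UMIs. A Btc UMI was found after thinning in 0.0231% of male and 0.0134% of female basal cells. Ereg was found in 48.1% ± 2.98 of male and 42.3% ± 7.34 of female terminally differentiated cells at the same depth (80.1% and 77.3% before thinning), against 0.419% and 0.165% of basal cells. The median depth was 17776 UMIs in male and 15179.5 UMIs in female terminally differentiated cells, and 7148 and 9068 UMIs in basal cells.

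At a finer resolution of clustering, most terminally differentiated cells fell into 2 subgroups per sex that differed in Ereg, and 5.70% to 18.8% of the class per male mouse and at most 0.461% per female mouse lay in neither. In males a subgroup led by Lce1 genes of the cornified envelope (41.6% to 55.0% of the class) had 203 to 309 CPM of Ereg per mouse, and a subgroup led by Car6 (35.2% to 43.0%) had 1977 to 2850.2 CPM. In females the Lce1-led subgroup (58.5% to 73.0%) had 178 to 632 CPM of Ereg, and the other, led by Il1f6 and Ereg itself, had 2430.5 to 3288 CPM. Ereg levels of the 2 subgroups did not overlap in either sex, whereas those of Btc did, at 40.7 to 165 and 109 to 238 CPM in males and 134 to 267 and 81.2 to 486 CPM in females. In females Egfr had 37.8 to 62.5 CPM in the Lce1-led and 123 to 183 CPM in the Il1f6-led subgroup. Male Egfr had 2.82 to 5.16 CPM in the Lce1-led and 5.30 to 11.3 CPM in the Car6-led subgroup. Erbb3, Areg, Hbegf, Tgfa and Epgn were likewise lower in the Lce1-led subgroup without overlap in both sexes. The difference was thus not particular to Ereg and Egfr, and Erbb2 overlapped as Btc did.

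Tgfa, a ligand of EGFR on chromosome 6 (86195223 to 86275719), was highest in male terminally differentiated cells (30.6 ± 3.63 CPM), followed by migratory (16.1 ± 2.12 CPM) and basal cells (7.49 ± 0.903 CPM). In females its migratory (61.9 ± 6.87 CPM) and terminally differentiated levels (57.9 ± 8.86 CPM) overlapped, followed by the basal class (43.4 ± 6.67 CPM), whose range overlapped the terminally differentiated one. The suprabasal class was lowest among the named keratinocytes for Tgfa in both sexes, at 3.19 ± 0.849 CPM in males, where the Krt9 class was close at 3.30 ± 0.729 CPM, and 8.31 ± 1.40 CPM in females. Epgn, a further ligand of EGFR, had 56.4 ± 13.9 CPM in suprabasal and 38.5 ± 9.30 CPM in basal cells of males, which overlapped, and 116 ± 27.9 CPM in the cluster led by Serpinb3a. In females Epgn had 27.1 ± 6.75 CPM in terminally differentiated cells, whose range overlapped that of basal cells (20.8 ± 4.63 CPM).

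Hbegf, which binds EGFR and ERBB4 and lies on chromosome 18 (36504927 to 36515805), was spread widely. It had 497 ± 39.7 CPM in migratory, 409.9 ± 103 CPM in terminally differentiated, 354 ± 36.1 CPM in basal and 306 ± 30.1 CPM in suprabasal cells of males, and 530.4 ± 89.5 CPM in the cluster led by Serpinb3a, and neighbors in this order of the named classes overlapped. In females the named keratinocyte classes lay between 161 ± 15.4 CPM (proliferating) and 249 ± 17.6 CPM (suprabasal) for Hbegf.

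Areg, a ligand of EGFR alone, had its highest level outside the keratinocytes. T cell-like cells had 1573 ± 746 CPM in males and 708 ± 277 CPM in females. The lowest T cell-like level of Areg, 881 CPM in males and 282 CPM in females, lay above the highest level of a mouse in any other class, 268 CPM in males and 75.9 CPM in females. Thinned to 1000 UMIs, 33.1% ± 6.42 of male and 27.9% ± 8.11 of female T cell-like cells held an Areg UMI (39.7% and 42.3% before thinning), against 2.16% ± 0.441 and 1.06% ± 0.187 of basal cells (11.4% and 7.24%). This left out 39 male and 2 female T cell-like cells, whose class had a median depth of 1457 UMIs in males and 2899 UMIs in females. Because the class was small, it held 0.80% of all Areg UMIs in males and 3.49% in females. The male cluster led by Serpinb3a came next, with 226 ± 27.5 CPM, above terminally differentiated cells in 6 of 6 mice, and it held 34.7% ± 4.11 of the Areg UMIs, while in females the suprabasal class held 48.3% ± 4.44. Among the named keratinocyte classes Areg had 133 ± 23.3 CPM in terminally differentiated, 89.7 ± 4.32 CPM in suprabasal and 27.0 ± 5.71 CPM in basal cells of males, and 56.1 ± 14.3, 35.4 ± 6.13 and 12.1 ± 2.17 CPM in those of females.

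Free RNA of broken keratinocytes was gauged by the keratin genes, whose level in T cell-like cells was 2.48% to 6.04% of that in keratinocytes in males and 2.25% to 9.48% in females. At that ratio keratinocyte RNA would bring 3.27 CPM of Areg in males and 0.770 CPM in females, and 6 of 6 mice of each sex lay above it. The receptors were at or near 0 in T cell-like cells: Egfr had 1 UMI in males and 3 UMIs in females, Erbb3 1 and 3, and Erbb2 0 in both, which allows up to 9.84 CPM in males and 3.29 CPM in females (3 UMIs over the 6 mice, counting error only). Btc also had 0 UMIs there in either sex, with the same limits.

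In LC-like cells, keratin genes stood at 33.5% to 61.0% of the keratinocyte level in males and 18.1% to 35.0% in females, so a part of the level of each gene there can come from keratinocyte RNA. Under 0.5% keratin UMIs were held by 1066 of 1372 male and 1821 of 2179 female LC-like cells. In these the keratin genes stood at 1.42% to 2.84% and 1.40% to 2.04%, so most of the keratin lay in the remaining cells. Doublets stayed in, and their part was not tested. The main diet tests used all LC-like cells. Over all LC-like cells Ereg (23.3 ± 12 CPM in males, 4.29 ± 4.59 CPM in females) was below the level that the keratin ratio brings in 6 of 6 mice of each sex. The ratio rests on all keratinocytes, whereas most Ereg UMIs lay in the terminally differentiated class. Lor, a marker of that class, had 63589.5 CPM there in males and 58945 CPM in females, against 415 and 48.7 CPM in LC-like cells. The ratio thus cannot tell how much Ereg keratinocyte RNA brings, here or in the low-keratin cells below. Hbegf (153 ± 51.2 and 52.0 ± 12 CPM) was close to it, at 158 and 52.6 CPM. Areg and Egfr were above it in 6 of 6 mice of each sex. In the 1066 male and 1821 female LC-like cells with under 0.5% keratin UMIs, Areg had 65.1 ± 26.6 and 19.2 ± 4.54 CPM, where the keratin ratio brings 1.65 and 0.355 CPM. In the same cells Egfr had 13.9 ± 4.08 CPM in males and 29.6 ± 6.38 CPM in females, where the ratio brings 0.520 and 4.09 CPM. Ereg in these cells had 4.75 ± 2.16 CPM in males, above the 3.30 CPM of the ratio in 4 of 6 mice, and 3.20 ± 2.26 CPM in females, above 0.976 CPM in 6 of 6, so that its place relative to the ratio changed with the cells used. Hbegf there had 11.4 ± 7.49 and 6.05 ± 1.32 CPM, where the ratio brings 7.50 and 3.44 CPM, and was above it in 5 of 6 mice of each sex. Erbb2 had 15.5 CPM in all and 0.737 CPM in these low-keratin LC-like cells of males, and 8.83 and 0.627 CPM in females.

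**Figure D3:**
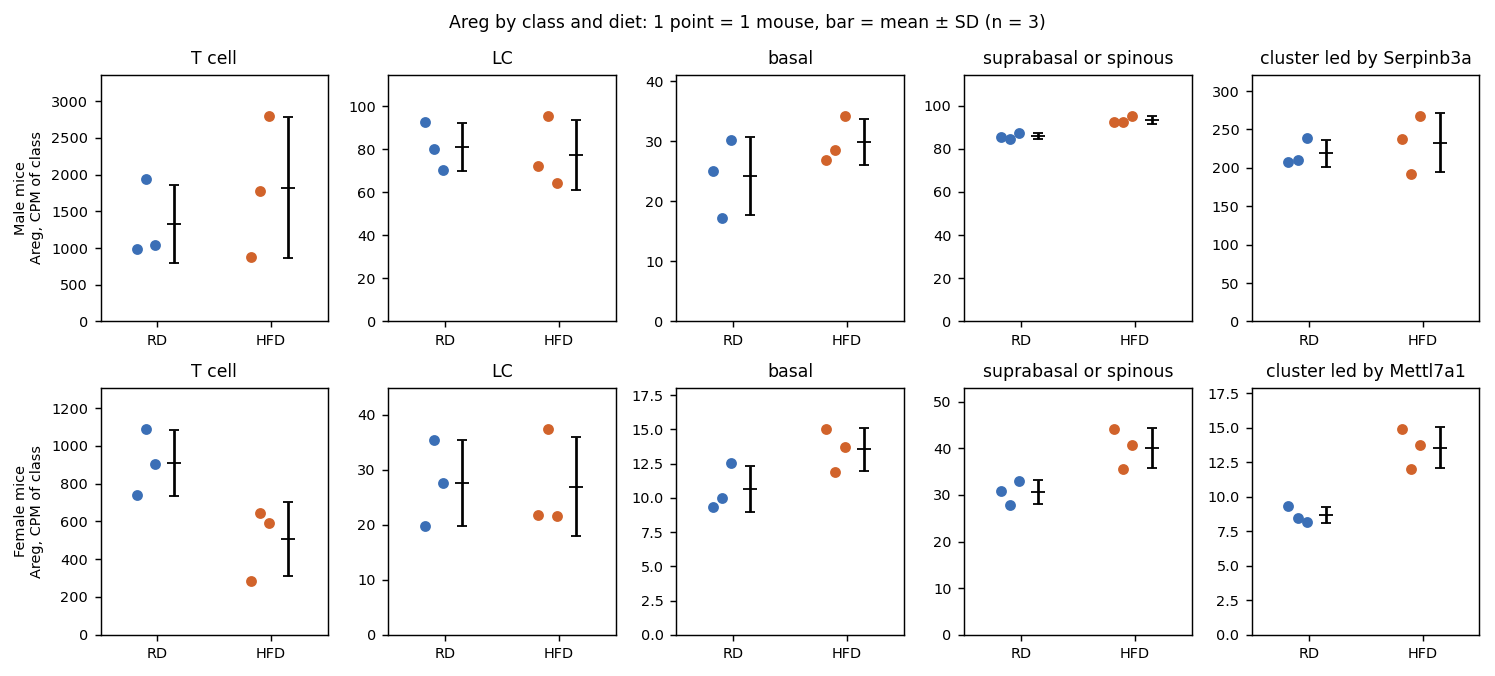
Level of Areg by diet in T cell-like cells, LC-like cells, basal and suprabasal keratinocytes and 1 unnamed cluster per sex, led by Serpinb3a in males and by Mettl7a1 in females. Points are mice, bars the mean ± SD of 3 mice, the vertical axis is CPM of the class with its own scale in each panel, and T cell-like cells lie highest, at 881 to 2803 CPM in males and 282 to 1089 CPM in females.

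The diet comparison asked whether HFD went with another level of these genes in any class. A difference was called when the adjusted p of edgeR's quasi-likelihood test, corrected over all genes tested in the class, was under 0.05, and log2 fold changes are HFD over RD with their standard error (SE). In males 0 of 58 edgeR tests of a member in a named class were called, with 11 at an unadjusted p under 0.05 and 3 calls by DESeq2. The share of all genes called was 0% in each named male class except T cell-like cells, with 0.137%, and 5.84% to 29.8% of all genes of a class had an unadjusted p under 0.05. In females 0 of 50 edgeR tests were called, with 16 at an unadjusted p under 0.05 (8.61% to 22.8% of all genes of a class) and 2 calls by DESeq2. The share of all genes called in females was 0.889% in basal, 1.78% in proliferating, 4.46% in suprabasal, 0% in terminally differentiated, 0.225% in migratory, 0.056% in LC-like and 0.279% in T cell-like cells. The lowest adjusted p of a member was 0.0635 in males and 0.0601 in females by edgeR. The shares of all genes called are those of the main edgeR fits, and none is given for DESeq2 or the other alternatives. All 9 genes passed the filter on low counts in the terminally differentiated and migratory classes and 8 in basal, proliferating and suprabasal cells, where Btc was too low. In LC-like cells 7 were tested in each sex, and in T cell-like cells only Areg.

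**Figure D4:**
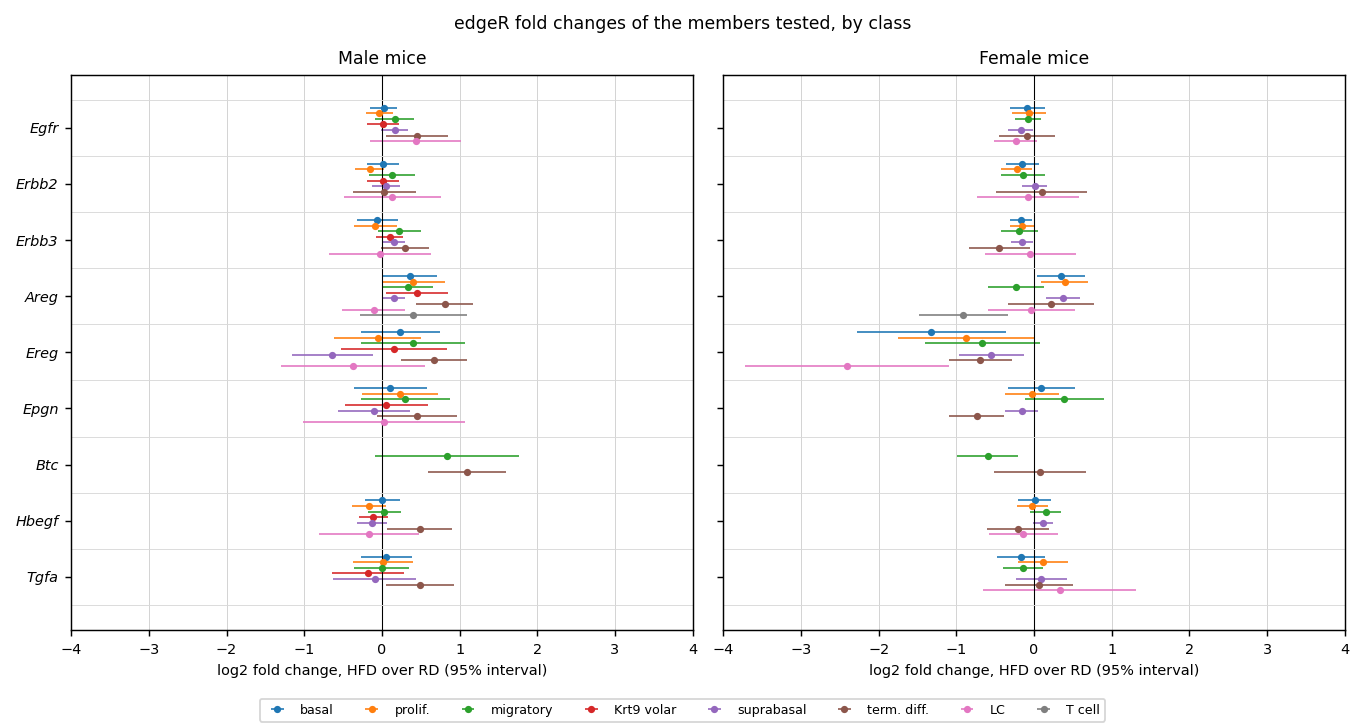
Log2 fold change of HFD over RD for the 9 genes in each class, from edgeR, for males and females in separate panels, with classes in different colors and 95% intervals as horizontal bars. Points right of 0 are higher on HFD. In terminally differentiated cells Ereg is at 0.67 in males and at -0.69 in females.

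In terminally differentiated cells 3 ligands were higher in every HFD male than in every RD male. Ereg had 925, 1121 and 992 CPM on RD and 1207, 1314 and 1269 CPM on HFD, a log2 fold change of 0.67 (SE 0.19, adjusted p = 0.0792 by edgeR). Areg had 116, 113 and 108 CPM on RD and 152, 146 and 162 CPM on HFD, a log2 fold change of 0.81 (SE 0.17, adjusted p = 0.0635 by edgeR). Btc had 102, 76.6 and 59.6 CPM on RD and 153, 103 and 133 CPM on HFD, a log2 fold change of 1.09 (SE 0.23, adjusted p = 0.0635 by edgeR). Of all genes of this class, 3.25% were higher and 28% lower without overlap. None of the 3 ligands passed the threshold in edgeR. All 3 passed it by DESeq2 (adjusted p = 0.0123 for Ereg, 0.00475 for Areg and 0.00314 for Btc) and in edgeR without male RD replicate 3 (0.0226, 0.0168 and 0.0229). The shares of all genes called in these fits are not given here, so these calls have no background beside them. At an unadjusted p under 0.05 stood 6 of the 9 genes, beside 29.8% of all genes.

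The size of these male differences rested on the scaling. The TMM factors, which correct for a few abundant genes taking up a library, were 1.16, 1.32 and 0.948 in the RD and 0.768, 0.935 and 0.962 in the HFD mice of this class. Without them, an alternative chosen after seeing the data, the median of all genes was -0.42 on the log2 scale and the ligands stood at 0.32 for Ereg, 0.45 for Areg and 0.70 for Btc (adjusted p = 0.209, 0.0748 and 0.0601 by edgeR). The remaining 6 genes overlapped between the diets in male terminally differentiated cells, for example Hbegf with 332, 572 and 285 CPM on RD and 378, 421 and 471 CPM on HFD (log2 fold change 0.49, adjusted p = 0.130 by edgeR). Basal markers in this class summed to 1946 to 3187 CPM in RD and 835 to 1734 CPM in HFD males, fibroblast markers to 14.7 to 20.7 and 0.599 to 8.43 CPM, T cell markers to 2.32 to 3.81 and 1.08 to 2.05 CPM and Merkel markers to 0.649 to 1.70 and 0 to 0.541 CPM, and their part in the result was not tested. The summed terminally differentiated markers overlapped, at 124992 to 189044 and 179153 to 207094 CPM. The 11 immediate early genes, which dissociation of tissue induces, had a median log2 fold change of 0.36 in this male class, beside -0.06 for all genes. Of these 0 were called by edgeR, and their part in the ligand differences was not tested.

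In female terminally differentiated cells 3 genes were lower in every HFD than in every RD mouse. Ereg had 1555, 1418 and 1644 CPM on RD and 1211, 1096 and 745 CPM on HFD, a log2 fold change of -0.69 (SE 0.19, adjusted p = 0.459 by edgeR). Epgn had 33.2, 33.6 and 32.7 CPM on RD and 23.2, 19.7 and 20.3 CPM on HFD, a log2 fold change of -0.74 (SE 0.16, adjusted p = 0.334 by edgeR). Erbb3 had 47.2, 43.3 and 49.5 CPM on RD and 43.2, 35.9 and 29.9 CPM on HFD, a log2 fold change of -0.45 (SE 0.18, adjusted p = 0.572 by edgeR). Of all genes of this class, 4.22% were lower without overlap, and none of the 3 passed the threshold. Areg, with 65.0, 34.4 and 49.8 CPM on RD and 75.9, 60.5 and 51.1 CPM on HFD, overlapped between the diets, as did Btc with 206, 193 and 265 CPM on RD and 254, 346 and 143 CPM on HFD. At an unadjusted p under 0.05 stood 3 of the 9 genes, beside 8.61% of all genes. The median log2 fold change of the 11 immediate early genes was -0.15 in this female class, beside 0.03 for all genes, and their part was not tested.

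Whether the diet difference itself differed by sex was tested with an interaction term over all 12 mice. Sex goes with the counting software here too, and the interaction cannot tell them apart. For the suprabasal class sex also goes with its content, since only the female class contains a cluster led by Serpinb3a. Of 51 edgeR tests of a member 0 were called, with 16 at an unadjusted p under 0.05 (4.61% to 27.9% of all genes of a class) and 4 calls by DESeq2. The share of all genes called was 0% in terminally differentiated cells, 0.0349% in basal, 0.0417% in proliferating, 0.309% in suprabasal, 0.262% in migratory and 0% in LC-like and T cell-like cells. In terminally differentiated cells the male less the female log2 difference was 1.42 for Ereg (SE 0.29, adjusted p = 0.0605 by edgeR), 1.24 for Epgn (SE 0.32, adjusted p = 0.0671 by edgeR) and 0.80 for Erbb3 (SE 0.23, adjusted p = 0.0691 by edgeR). At an unadjusted p under 0.05 stood 6 of the 9 genes, beside 27.9% of all genes. The median of the 11 immediate early genes for the interaction was 0.49 in this class, beside -0.05 for all genes, and their part was not tested. By DESeq2 the adjusted p was 0.000357 for Ereg, 0.00976 for Epgn, 0.0172 for Erbb3 and 0.0454 for Hbegf. For Ereg the value was 0.91 (adjusted p = 0.0448 by edgeR) without TMM, where the median of all genes was -0.56, 1.56 (0.0346) without male RD replicate 3 and 1.55 (0.0120) without female RD replicate 2. For Epgn the values without these mice in turn were 1.43 (adjusted p = 0.0346 by edgeR) and 1.32 (0.0218), and for Erbb3 without female RD replicate 2 the value was 0.93 (0.0204). Over all 20 alternatives the values ran from 0.86 to 1.56 for Ereg, from 0.76 to 1.43 for Epgn and from 0.28 to 0.94 for Erbb3. Of these 20, 5 were called for Ereg, 4 for Epgn and 2 for Erbb3. The shares of all genes called by DESeq2 and in these alternatives are not given, so the calls have no background beside them.

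In the 2 subgroups of this class, male Areg was higher on HFD without overlap, at 48.8 to 60.9 CPM on RD and 71.5 to 111 CPM on HFD in the Lce1-led cells and at 189 to 198 and 206 to 261 CPM in the Car6-led cells. Of all genes with at least 10 UMIs in at least 3 mice, 3.13% were higher and 42.7% lower without overlap in the Lce1-led cells, and 3.65% higher and 12.6% lower in the Car6-led cells. In the male Lce1-led cells Btc was also higher without overlap, at 40.7 to 77.8 and 96.6 to 165 CPM, as was Tgfa, at 10.3 to 12.2 and 12.6 to 14.4 CPM. Among the receptors in these cells Erbb2 was lower in every HFD male, at 5.42 to 6.82 and 2.82 to 4.27 CPM, and so was Erbb3, at 6.65 to 9.82 and 3.99 to 4.27 CPM, the direction of far more genes of this subgroup than the opposite one. Male Ereg overlapped between the diets in each, at 203 to 258 and 233 to 309 CPM in the Lce1-led and 1977 to 2483 and 2279 to 2850.2 CPM in the Car6-led cells. Female Ereg was lower on HFD without overlap in the 2 subgroups, at 504 to 632 CPM on RD and 178 to 269.6 CPM on HFD in the Lce1-led cells and 2938 to 3288 and 2430.5 to 2621 CPM in those led by Il1f6, where 3.48% and 6.55% of all genes were lower without overlap, and 8.08% and 7.41% higher. In the Il1f6-led cells Epgn was also lower in every HFD female, at 73.4 to 96.7 CPM on RD and 51.6 to 66.9 CPM on HFD, and Erbb3, at 93.0 to 104 and 71.8 to 80.9 CPM. The other members overlapped between the diets in each subgroup. No test was run within the subgroups.

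**Figure D5:**
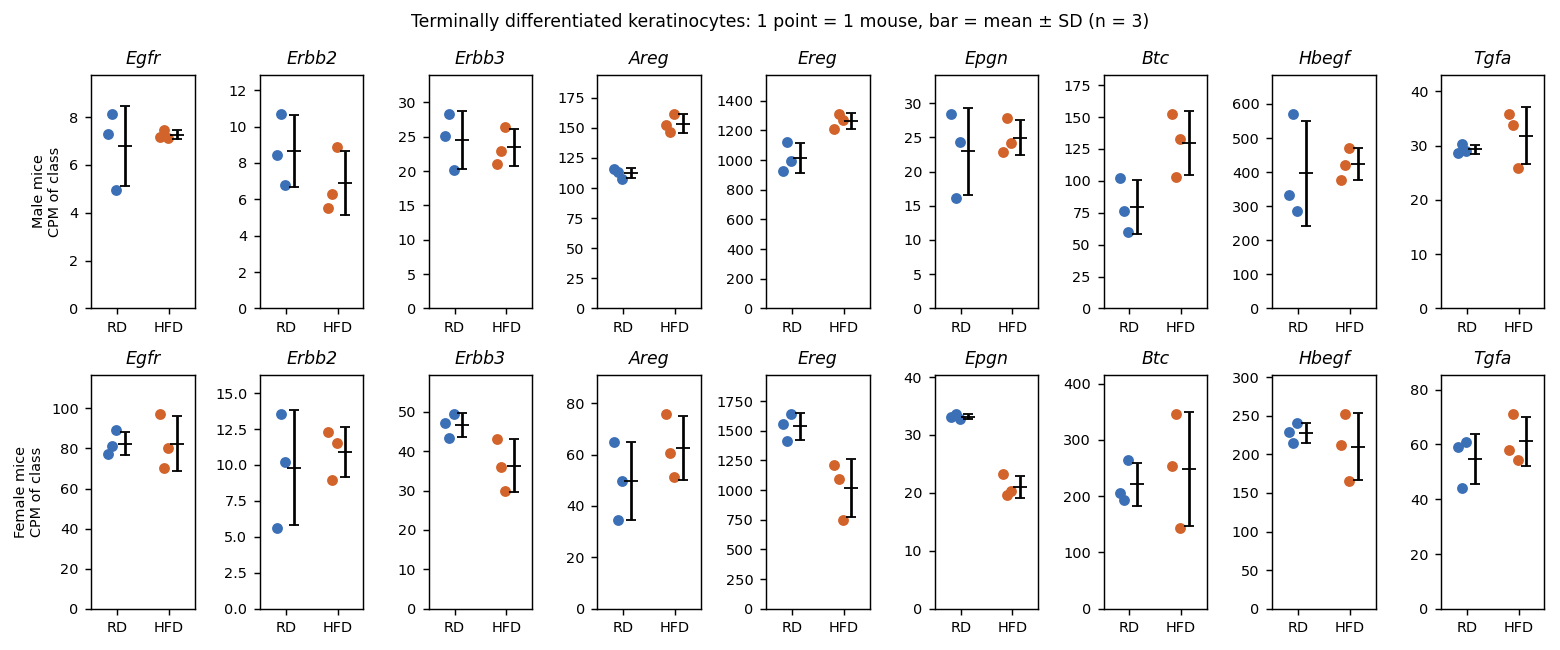
Level of the 9 genes in terminally differentiated cells by diet and sex. Points are mice, the mean ± SD is over 3 mice, and the vertical axis is CPM of the class. Ereg means are 1012 CPM on RD and 1263 CPM on HFD in males, and 1539 and 1017 CPM in females.

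Areg in suprabasal cells was higher on HFD without overlap in both sexes. Females had 30.9, 27.9 and 33.0 CPM on RD and 44.2, 35.6 and 40.7 CPM on HFD, a log2 fold change of 0.37 (SE 0.10, adjusted p = 0.0601 by edgeR), beside 17.9% of all genes higher without overlap in this class. Without female HFD replicate 2 the value was 0.46 (adjusted p = 0.0134 by edgeR), and DESeq2 gave an adjusted p of 0.0151. No share of all genes called is given for these fits. Males had 85.7, 84.6 and 87.5 CPM on RD and 92.5, 92.3 and 95.3 CPM on HFD, a log2 fold change of 0.16 (SE 0.06, adjusted p = 0.655 by edgeR), beside 3.8% of all genes higher without overlap. In the male suprabasal class terminally differentiated markers summed to 421 to 447 CPM on RD and 454 to 597 CPM on HFD, basal markers to 353 to 392 and 194 to 324 CPM, sweat gland markers to 67.1 to 77.0 and 52.2 to 63.6 CPM and T cell markers to 0.891 to 1.45 and 1.5 to 2.00 CPM, and their part in the male Areg and Erbb3 differences of this class was not tested. In the female suprabasal class these marker sums overlapped between the diets, but Schwann markers, given below, did not. The class held 23.5% to 24.0% of the cells of RD and 16.8% to 21.5% of those of HFD females. It contains the cluster led by Serpinb3a (6648 of its 14109 cells), whose share by diet is not given. The part of these in the female Areg difference was not tested. Fitted values of Areg were above 0 in 6 of 6 named male and 4 of 5 named female keratinocyte classes, the exception being female migratory cells. At a mitochondrial limit of 10% the male migratory value was -0.04 in place of 0.33.

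Across the unnamed clusters 1 member was called, Areg in the female cluster led by Mettl7a1, beside 1.32% of all genes there and 0% to 0.111% in the 4 male clusters (0.0191% in the one led by Tubb3). Areg rose from 9.29, 8.49 and 8.16 CPM on RD to 14.9, 12 and 13.8 CPM on HFD (log2 fold change 0.63, SE 0.12, adjusted p = 0.0312 by edgeR). With 5 of the 6 mice left out in turn this call was lost, with adjusted p by edgeR of 0.132, 0.143 and 0.147 without female RD replicates 1, 2 and 3 and 0.0866 and 0.0794 without female HFD replicates 1 and 3, at log2 fold changes of 0.54 to 0.68. It was also lost with the replicate block. In this cluster Schwann markers summed to 48.9 to 53.6 CPM on RD and 41.3 to 48.1 CPM on HFD and melanocyte markers to 3.30 to 4.60 and 4.67 to 6.06 CPM, without overlap, and their part in the Areg difference was not tested.

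Ereg in females was fitted lower on HFD in all 6 named classes where it was tested, with log2 fold changes from -2.41 in LC-like cells to -0.55 in suprabasal cells and no call by edgeR, while DESeq2 called it in basal cells (adjusted p = 0.0330). These classes come from the same mice, and no share of all genes called by DESeq2 is given. Lor, a marker of the terminally differentiated class, had 58945 CPM there in females, 40.2 CPM in basal, 37.2 CPM in proliferating and 48.7 CPM in LC-like cells. RNA of terminally differentiated cells can thus lie in the other classes, and its part in their Ereg levels and differences was not tested. In males Ereg was fitted higher in 4 of 6 named keratinocyte classes, from -0.64 to 0.67. The female values rested in part on single mice: without female RD replicate 3 that of LC-like cells was -1.56 and that of basal cells -0.74 in place of -1.32, and without female HFD replicate 1 that of proliferating cells was -1.59 in place of -0.88. In female LC-like cells Ereg had 3.58, 4.83 and 13.1 CPM on RD and 0.989, 2.34 and 0.884 CPM on HFD (SE 0.60, adjusted p = 0.233 by edgeR), beside 7.15% of all genes lower without overlap. Terminally differentiated markers in these LC-like cells summed to 153 to 189 CPM on RD and 91.5 to 128 CPM on HFD, and their part in the result was not tested. Female migratory Btc had 6.86, 6.62 and 6.14 CPM on RD and 4.60, 4.09 and 4.44 CPM on HFD, a log2 fold change of -0.60 (SE 0.18, adjusted p = 0.160 by edgeR), beside 9.09% of all genes lower without overlap. Suprabasal markers in this class summed to 12336 to 14513 CPM on RD and 10448 to 11515 CPM on HFD, basal markers to 10984 to 11709.6 and 12070.2 to 12330.5 CPM, sweat gland markers to 24.0 to 25.7 and 13.5 to 17.4 CPM and T cell markers to 1.00 to 1.32 and 1.5 to 2.10 CPM, and their part was not tested. Every HFD female thus lay below every RD female for Ereg in LC-like and for Btc in migratory cells.

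Within each sex edgeR called 0 of 21 male and 0 of 18 female tests of a receptor in the named classes, with 2 and 5 of them at an unadjusted p below 0.05. Of all genes of a class, 5.84% to 29.8% in males and 8.61% to 22.8% in females had such a p. DESeq2 also called 0 of the receptor tests in each sex. Female Erbb3 was lower on HFD without overlap in 4 of 5 named keratinocyte classes. These classes come from the same mice and do not count as repeats, and the share of all genes lower in as many classes is not given. In basal cells female Erbb3 had 48.3, 47.1 and 47.7 CPM on RD and 43.8, 41.1 and 42.8 CPM on HFD (log2 fold change -0.17, SE 0.07, adjusted p = 0.265 by edgeR), where 10.4% of all genes were lower without overlap. In suprabasal cells female Erbb3 had 80.7, 88.4 and 78.5 CPM on RD and 77.0, 77.3 and 72.2 CPM on HFD (log2 fold change -0.16, SE 0.06, adjusted p = 0.170 by edgeR), beside 9.82% of all genes. Male suprabasal Erbb3 was higher in every HFD mouse, with 42.1, 40.5 and 43.1 CPM on RD and 45.0, 44.4 and 46.5 CPM on HFD (log2 fold change 0.15, SE 0.07, adjusted p = 0.697 by edgeR), beside 3.8% of all genes higher without overlap. Egfr in basal cells had 30.8, 32.5 and 34.7 CPM on RD and 30.7, 32.1 and 33.5 CPM on HFD in males, and 316, 298 and 340.1 CPM on RD and 297, 261 and 343 CPM on HFD in females, overlapping in both sexes. Fitted values of Egfr and Erbb3 were below 0 in 5 of 5 named female keratinocyte classes, from -0.17 to -0.06 for Egfr and from -0.45 to -0.16 for Erbb3. In males the fitted value was above 0 in 5 of 6 such classes for Egfr (-0.04 to 0.46) and in 4 of 6 for Erbb3 (-0.08 to 0.30). Erbb2 was lower on HFD without overlap in proliferating cells of both sexes, at 18.9 ± 0.889 CPM on RD and 16.6 ± 0.555 CPM on HFD in males (log2 fold change -0.16, adjusted p = 0.765 by edgeR). In females the Erbb2 values were 25.2 ± 2.18 and 22.0 ± 0.543 CPM (-0.23, adjusted p = 0.197 by edgeR), and 8.1% of all genes in males and 9.54% in females were lower without overlap there. Over 15 alternatives the female log2 fold change of Erbb2 ran from -0.29 to -0.13. Suprabasal markers in the proliferating class summed to 9547 to 9821 CPM on RD and 8075 to 9243 CPM on HFD in males and to 9141 to 10219 and 6464 to 8675 CPM in females. Terminally differentiated markers there summed in males to 302 to 371 CPM on RD and 376 to 521 CPM on HFD, and basal markers in females to 12908 to 13831 CPM on RD and 13916 to 14728 CPM on HFD. Of the less abundant lists, LC and Schwann markers in these male cells and T cell, Merkel, Schwann and sweat gland markers in these female cells also did not overlap, at 16.4 to 24.3 CPM on RD and 14.5 to 15.3 CPM on HFD for the male Schwann and 4.69 to 7.65 CPM on RD and 8.16 to 9.85 CPM on HFD for the female Merkel list. Schwann markers were lower without overlap in female basal cells too, at 51.8 to 55.2 CPM on RD and 38.5 to 49.4 CPM on HFD, and in female suprabasal cells, at 34.9 to 36.1 CPM on RD and 30.4 to 34.6 CPM on HFD. The part of these markers in the Erbb2 and female Erbb3 differences was not tested.

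In T cell-like cells Areg was lower in every HFD than in every RD female. These had 739, 1089 and 905 CPM on RD and 282, 644 and 591 CPM on HFD (log2 fold change -0.91, SE 0.27, adjusted p = 0.243 by edgeR), beside 6.75% of all genes lower without overlap. Over 16 alternatives this female log2 fold change ran from -1.14 to -0.56. The males had 987, 1939 and 1048 CPM on RD and 881, 1778 and 2803 CPM on HFD, which overlapped (log2 fold change 0.41). The male less the female difference was 1.34 (SE 0.44, adjusted p = 0.771 by edgeR). In the same female cells keratins summed to 806 to 2313 CPM on RD and 478 to 709 CPM on HFD, and 11 immediate early genes, which dissociation of tissue induces, to 7069 to 9302 and 6248 to 6732 CPM, while suprabasal markers summed to 1059 to 1314 and 760.0 to 853 CPM. Their part in the Areg difference was not tested.

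Of the 67 other genes of the pathway, 12 to 64 passed the filter in the named male classes, where none was called by edgeR, and 25 to 65 in the female. In females Socs5, a feedback inhibitor of EGFR, rose in suprabasal cells from 4.42 ± 0.701 to 6.73 ± 0.144 CPM (log2 fold change 0.58, adjusted p = 0.0366 by edgeR), and Ccnd1, the cyclin D1 gene, fell there from 132 ± 12.9 to 88.3 ± 5.83 CPM (-0.61, adjusted p = 0.0117), which made 2 of 63 tested, no more than the 4.46% of all genes called in this class. Fos, an immediate early gene, fell in female T cell-like cells from 1292 ± 193 to 647 ± 108 CPM (-1.03, adjusted p = 0.0274 by edgeR), the 1 call of 25 tested (0.279% of all genes). The diet difference of Dusp5, an ERK phosphatase, in migratory cells was called as differing by sex (0.95, adjusted p = 0.00725 by edgeR), the 1 call of 65 tested (0.262% of all genes). The median log2 fold change of the list was 0.16 in male and -0.07 in female terminally differentiated cells, where that of the 9 members was 0.49 and -0.09 and that of all genes -0.06 and 0.03.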

How the data were processed

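Hind paw epidermis of 12 mice was measured by single-cell RNA sequencing. The authors deposited UMI counts per gene and barcode, whole numbers without normalization. The file headers name Cell Ranger 6.1.0 for males and 7.2.0 for females, the submitters' notes Cell Ranger 7.2.0 and Seurat 5.0.0, and whether introns were counted is not given in the sources used here. Following the study, barcodes with fewer than 200 genes in males or 500 in females, over 6000 genes or over 5% mitochondrial UMIs were dropped. Within each sex, counts scaled to 10000 per cell, 2000 variable genes, 10 principal components, 20 neighbors and leidenalg 0.10.2 at a resolution of 0.3 gave clusters, named where at least 3 markers were in at least 0.1 of the cells at a log2 fold of at least 0.5. Doublets stayed in, except in an alternative that removed the highest doublet scores (0.8% per 1000 barcodes).

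UMIs were summed per mouse and class and tested with edgeR 4.0.16 in R 4.3.3 (quasi-likelihood test, TMM, filterByExpr, Benjamini-Hochberg adjustment over all genes tested in the class, threshold 0.05), in 1 fit per class of the 6 mice of a sex, and of 12 mice for the interaction. The fit was also run on simulated counts of male basal, male and female LC-like and female suprabasal cells, with the same dispersion for all genes. Terminally differentiated and T cell-like cells were not simulated, and the outcome is not given here. Levels are CPM without TMM. Alternatives were DESeq2 1.42.0, RLE size factors, no filter, a replicate block, 1 fit of 12 mice, each mouse left out, a 10% mitochondrial limit, a resolution of 0.6, and immune cells with few keratin UMIs. The text names all 9 genes, and of the pathway list the genes past the threshold. It also gives the levels by class of Nrg1, Erbb4, Egf, Adam17, Adam10, Errfi1 and Lrig1, which belong to a longer list whose other levels by class are not given. Classes were compared as a description, since the same cells defined them. The members and lists were chosen with earlier results of these data known. Class sums ranged from 39380 to 297704 UMIs per mouse in T cell-like cells and from 16401021 to 32319638 in basal cells, and limits cover counting error only. Promoters came from RefSeq (6 of the 9 genes matched).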

Additional observations from a re-analysis of the deposited data

Results flagged for a closer look

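Ereg in terminally differentiated cells was picked out because every HFD male lay above every RD male and every HFD female below every RD female. Each member was scanned in each named class, and the share of all genes that meet this rule in both sexes is not given. In this class 3.25% of all genes were higher without overlap in males and 4.22% lower in females. The male less the female log2 difference was 1.42 (adjusted p = 0.0605 by edgeR).

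Erbb3 in suprabasal cells was picked out for the same reason, with a male less female log2 difference of 0.31 (adjusted p = 0.117 by edgeR). The female suprabasal class contains a cluster led by Serpinb3a that in males was outside the class. In males Erbb3 had 51.7 ± 3.40 CPM in that cluster and 43.6 ± 2.13 CPM in the suprabasal class. Sex and class content cannot be told apart in this difference. In the suprabasal class 3.8% of all genes were higher without overlap in males and 9.82% lower in females. The groups of 3 mice were too small for a check of single outlying mice.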

How the results depend on the processing

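No member was called in the named classes of males (0) or females (0) or for the interaction (0). In males the count became 3 with DESeq2, 6 without the filter on low counts, 1 with the replicate block (Btc in terminally differentiated cells, adjusted p = 0.0269 by edgeR), 1 at resolution 0.6, and 0 to 3 with 1 mouse left out, the 3 without male RD replicate 3. In females it became 2 with DESeq2, 1 without TMM, 6 without the filter, 2 with the replicate block (Areg in suprabasal cells, adjusted p = 0.0474, and T cell-like cells, 0.0272, by edgeR), 1 in 1 fit of 12 mice, 1 at a 10% mitochondrial limit, and 0 to 1 with 1 mouse left out (female HFD replicate 2). For the interaction it became 4 with DESeq2, 1 without TMM, 8 without the filter, and 0 to 4 with 1 mouse left out (2 without male RD replicate 3, 4 without female RD replicate 2). The shares of all genes called in these alternatives are not given, and the causes were not tested. Deviations of mice with the same number correlated at -0.455 to 0.279, and those of mice with different numbers at -0.435 to 0.544. With 3 mice per group this cannot decide whether equal numbers mark a shared batch, and the labels do not say. With the block the Areg call in the cluster led by Mettl7a1 was lost (adjusted p = 0.0719 by edgeR).

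Of 782 alternative log2 fold changes, 732 kept their direction and side of the threshold, 43 passed it newly, 6 lost it, and 1 reversed, male migratory Areg at -0.042 with the 10% mitochondrial limit. Of 56 alternative levels, 52 moved by less than 1 SD. With the highest doublet scores removed, male terminally differentiated Ereg was at 1334 CPM and Tgfa at 35.2 CPM. At resolution 0.6, male suprabasal Epgn was at 71.4 CPM and female migratory Tgfa at 68.9 CPM. In T cell-like cells of each sex 8 of 9 members did not pass the filter on low counts, so the diets could not be compared for them there.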

Other observations

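Nrg1, a neuregulin that binds ERBB3 and ERBB4, had 65.5 ± 13.1 CPM in male and 403 ± 84.2 CPM in female basal cells, against 4.99 ± 1.08 and 25.7 ± 3.57 CPM in suprabasal cells (SD, n = 6), the opposite order to Erbb3. Erbb4, the remaining receptor of the family, had 0 UMIs in male basal cells and 9.30 ± 8.10 CPM in female migratory cells, and Egf stood at 0.232 CPM in male and 0.531 CPM in female basal cells. The proteases that release the ligands were lower in the terminally differentiated class, where Ereg and Btc were highest, than in basal cells: in males Adam17 had 7.90 ± 2.07 and 25.6 ± 1.90 CPM, and Adam10 4.42 ± 1.34 and 23.5 ± 1.81 CPM. In females Adam17 had 13.7 ± 1.02 and 48.8 ± 4.17 CPM, and Adam10 13.5 ± 1.97 and 58.4 ± 2.28 CPM. Egfr and Erbb2 were also lower in terminally differentiated than in basal cells, and the share of all genes lower there is not given. Errfi1, an intracellular inhibitor of EGFR, was higher there, at 255 ± 30.3 CPM in male terminally differentiated and 184 ± 21.9 CPM in basal cells, and 414 ± 52.3 and 213 ± 32.0 CPM in females. Lrig1, a membrane inhibitor of the receptors, had 26.2 ± 3.15 CPM in male and 59.9 ± 7.86 CPM in female migratory cells, against 2.29 ± 0.532 and 6.67 ± 0.820 CPM in basal cells.

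Likeness was measured as the correlation of log levels over the classes of single mice (48 points in males, 42 in females, which share mice and libraries), averaged over the sexes, among 9495 genes. The gene most like each member, with its mean r, was Gnai1 (0.93) for Egfr, Kctd15 (0.99) for Erbb2, Klc3 (0.94) for Erbb3, Pld3 (0.94) for Areg, 2310046K23Rik (0.92) for Ereg, Tmem63a (0.88) for Hbegf, Defb1 (0.89) for Tgfa, Tmprss11f (0.99) for Btc and Noct (0.88) for Epgn. Among the members themselves, Ereg and Btc had r of 0.88 in males and 0.91 in females. Of the receptors, Egfr and Erbb2 had 0.86 and 0.92, Erbb2 and Erbb3 0.91 and 0.89, and Egfr and Erbb3 0.77 and 0.86. Areg had -0.81 and -0.89 with Egfr, -0.84 and -0.86 with Erbb2, and -0.82 and -0.74 with Erbb3. With Ereg, Areg had 0.11 and 0.10, and with Btc 0.10 and 0.04. The points include T cell-like cells, where Areg was highest and the 3 receptors were lowest, and the part of that class in r was not tested.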
